A study of Mus musculus with 18 samples.

Results

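The comparison described here is the last step of ovary development before birth in Elavl2 knockout (KO) mice: whole ovaries on the day of birth (P0 KO, 3 arrays) against whole ovaries late in gestation, at E17.5 (E17.5 KO, 3 arrays). Its members are the arrays whose titles carry those 2 labels, 6 of the 18 arrays in the series. The wild-type arrays of the same ages (P0 WT and E17.5 WT, 3 arrays each) show the change that the same days bring when Elavl2 is intact, and 6 more arrays at E15.5 enter the fit only. All samples were XX gonads of mice, the tissue was given as ovary and the sample type as mixed, and how many animals went into one sample was not given. The extent of the Elavl2 deletion, the strain and any allele that the wild types share were not given either. Nothing says that replicates came from separate animals, so a p-value here reflects only how far these samples scatter, and that scatter may be technical in part.

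ELAVL2 belongs to the ELAV family of RNA-binding proteins, which bind AU-rich and U-rich stretches of mRNA and affect how long the mRNA lasts and how well it is translated. In the fetal mouse ovary, oocytes pass through the first meiotic prophase and stop in it around birth. At that time the germ cell nests break up, flat pregranulosa cells enclose single oocytes in primordial follicles, and oocytes begin to store the maternal transcripts and zona pellucida proteins that they need later. The comparison of the KO arrays asks which of the changes of these days still take place without Elavl2.

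RNA was hybridised to 1-colour oligonucleotide arrays, and each value below is a gene's log2 intensity minus the 75th percentile of its array, so that 0 is a bright gene and one unit is a factor of 2. The probes well above background made up 62.5% to 75.1% of those on an array. A change is the level at P0 minus the level at E17.5 from a limma model that also holds a term for the scan run, because E17.5 KO 1 and 2 and the P0 KO arrays share a run while E17.5 KO 3 does not. For that reason a fitted change need not equal the difference of the plain array values. Changes are given with their standard error (SE), and a gene rose or fell when its p-value, adjusted over the 19294 genes tested, was under 0.05. No slide holds KO arrays of both ages, so slide and age cannot be told apart within the knockout. Every value is a share of the RNA of a whole ovary, and fewer cells of a type and less RNA per cell cannot be told apart.

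The germ cell markers Ddx4, Dazl and Sycp3 and the granulosa lineage marker Foxl2 were well above background on each of the 6 KO arrays. The arrays differed most in red cell genes. The median level of the 19 measured red cell genes was -4.68, -4.29 and -5.28 on the P0 KO arrays, against -3.11, -0.88 and 1.37 on the E17.5 KO arrays. It also ranged widely in the wild type, with -3.74, -1.27 and -4.15 on the P0 WT arrays and -1.19, -3.08 and -3.89 on the E17.5 WT arrays. E17.5 KO 3, the array of the other run, held the highest value of the 12. Among the E17.5 KO arrays, E17.5 KO 1 held the highest levels of most growth genes of the oocyte, as the values below show.

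In KO ovaries 7184 genes changed between E17.5 and P0, which is 37.2% of the genes tested. Of these, 3518 rose (18.2%) and 3666 fell (19%). The 3 P0 KO arrays lay entirely above or entirely below the 3 E17.5 KO arrays for 8414 genes (43.6%). A change of 2-fold or more was called for 1269 genes (6.58%), of which 687 rose and 582 fell. In WT ovaries 8350 genes changed (43.3%), 2088 of them by 2-fold or more (10.8%), and here 1545 rose and 543 fell. The genes called in KO were 4586 when E17.5 KO 2 was left out, 3017 when the 6 KO arrays were fitted alone without a run term, and 5782 when only arrays of the shared scan run were used.

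In the fit used here, most of the genes that fell in WT ovaries by 2-fold or more also fell in KO ovaries. Most of the WT rises of that size did not pass the test in KO, but their share depended on dim genes and on the processing. Of the 543 WT falls, 375 also fell in KO (69.1%), 3 rose and 165 were not called. Of the 1545 WT rises, 574 also rose in KO (37.2%), 14 fell and 957 were not called. Only 801 of these rises were of genes well above background on all 6 KO arrays, and 418 of them also rose in KO (52.2%). For such falls it was 271 of 377 (71.9%). With normexp and quantile normalization, 314 of 427 rises (73.5%) and 144 of 177 falls (81.4%) were called the same way in KO. Without the run term it was 50.8% of the rises and 67.3% of the falls. The median change of the WT risers was 0.50 in KO and 1.58 in WT on the log2 scale, and that of the WT fallers was -0.90 in KO and -1.31 in WT. These medians are of genes chosen by their WT change, so a smaller change in KO has to be read against that choice. Read from the knockout, 525 of the 687 KO rises of 2-fold or more also rose in WT (76.4%), as did 380 of the 582 KO falls in the other direction (65.3%).

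**Figure D1:**
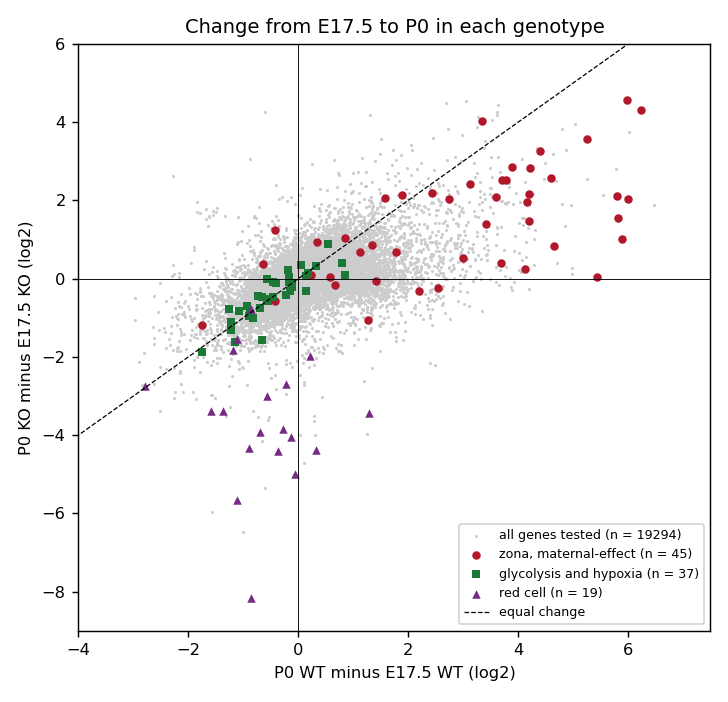
Change from E17.5 to P0 for each of 19294 genes, with the KO change (P0 KO minus E17.5 KO, log2) on the vertical axis and the WT change (P0 WT minus E17.5 WT, log2) on the horizontal axis. Grey points are all genes, red circles the zona and maternal-effect genes, green squares the glycolysis and hypoxia genes and purple triangles the red cell genes, and the dashed line marks equal change. The red circles spread below the line at large WT rises, the green squares lie near it, and the purple triangles lie low on the KO axis.

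The difference between the KO change and the WT change passed the test for 2008 genes (10.4%). The KO change was the lower one for 1182 genes (6.13%) and the higher one for 826 (4.28%). The largest class was genes that rose in WT and were not called in KO, 621 in number, with a median change of -0.06 in KO and 1.16 in WT. A further 151 rose in both genotypes but less in KO. In the other direction, 278 genes fell in WT and were not called in KO, and 355 rose in KO and were not called in WT. The count of differences was smaller when single arrays were left out, down to 1048 without P0 WT 2, 1222 without E17.5 KO 2 and 1331 without E17.5 KO 3. The split depends on the scaling: with arrays scaled to their median, the KO change was higher for 1477 genes and lower for 674, and with arrays of the shared scan run alone it was higher for 316 and lower for 1246. Scaling to the median moved the median WT change of all genes to -0.15 (2684 genes rose and 5873 fell in WT) and left that of KO at -0.01, so small WT changes and small differences between the genotypes are relative to that shift.

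Genes of oocyte growth were among the largest rises of the knockout, and a part of them rose less in KO than in WT. Of the 40 measured maternal-effect and growth genes, 23 rose, 2 fell and 15 were not called in KO, with a median change of 1.32, against 31, 2 and 7 with a median of 2.87 in WT. The share called in KO was 62.5%, against 37.2% of all genes. Over all genes tested the median was -0.01 in KO and 0.01 in WT. Of the 5 egg coat genes, 3 rose and 2 were not called in KO (60% called), with a median of 2.03, against 5 that rose in WT with a median of 5.79. A probe was kept if it was well above background on the 3 arrays of at least 1 group. Among the E17.5 and P0 groups, Astl and Oosp1, and Bmp15 and Oog3 of the growth genes, met this only through P0 WT. Their WT rise and lower KO level can thus come in part from this filter. The difference was called as lower in KO for 12 of the 40 (22 with normexp and quantile normalization) and for 4 of the 5. Of all genes, 6.13% had such a call. The KO median of the growth genes was 2.06 without E17.5 KO 1 and 0.96 without E17.5 KO 3.

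Promoters of 4 of these genes are printed to show, side by side, a gene that rose about as far in KO as in WT (Nlrp5) and genes whose rise was short or not called in KO (Zp3, Zar1, Oosp1). Each window spans a transcript start and lies mostly upstream of it, in the gene's own direction, as RefSeq gives it for the build GRCm38.p6. They lie on the plus strand at chr7:23403852-23404151 for one of the 2 Nlrp5 starts listed and at chr5:135979855-135980154 for Zp3, and on the minus strand at chr5:72581035-72581334 for Zar1 and at chr19:11691002-11691301 for Oosp1. Capitals mark matches of CANNTG, the E-box bound by basic helix-loop-helix factors such as FIGLA, which is the same on both strands. TAATTG, the core bound by the oocyte homeodomain factor NOBOX, was searched on both strands and is absent from these 4 windows.
Nlrp5: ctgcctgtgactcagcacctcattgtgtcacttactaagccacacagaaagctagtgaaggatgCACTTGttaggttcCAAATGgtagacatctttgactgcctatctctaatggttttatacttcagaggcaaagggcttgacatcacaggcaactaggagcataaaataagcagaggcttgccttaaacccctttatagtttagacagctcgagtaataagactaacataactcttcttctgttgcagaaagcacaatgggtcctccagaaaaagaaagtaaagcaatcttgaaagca
Zp3: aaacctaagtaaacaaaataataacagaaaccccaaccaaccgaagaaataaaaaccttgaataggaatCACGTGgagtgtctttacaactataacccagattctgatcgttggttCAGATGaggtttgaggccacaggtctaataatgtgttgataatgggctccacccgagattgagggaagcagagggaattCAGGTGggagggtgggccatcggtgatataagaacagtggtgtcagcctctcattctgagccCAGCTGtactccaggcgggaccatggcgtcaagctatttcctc
Zar1: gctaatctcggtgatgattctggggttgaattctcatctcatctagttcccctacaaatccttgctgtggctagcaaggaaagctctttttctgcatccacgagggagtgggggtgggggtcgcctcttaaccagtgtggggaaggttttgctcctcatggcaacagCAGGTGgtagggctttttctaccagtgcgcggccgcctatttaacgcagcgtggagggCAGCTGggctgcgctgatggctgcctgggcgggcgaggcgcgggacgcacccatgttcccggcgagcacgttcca
Oosp1: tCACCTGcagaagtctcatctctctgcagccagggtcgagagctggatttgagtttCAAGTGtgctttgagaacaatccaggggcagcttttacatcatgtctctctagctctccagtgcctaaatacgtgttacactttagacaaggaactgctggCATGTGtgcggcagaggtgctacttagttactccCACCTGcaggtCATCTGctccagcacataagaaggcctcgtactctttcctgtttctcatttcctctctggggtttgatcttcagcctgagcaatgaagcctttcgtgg
The windows hold 2, 4, 2 and 5 E-boxes in the order printed. At least one E-box stood in 66.1% of the 16322 listed promoters of the genes tested and TAATTG in 5.23% (72.3% and 8% of all 32851 promoters of the table). Of the genes that rose 2-fold or more in both genotypes, 257 of 333 listed promoters held an E-box (77.2%) and 36 held TAATTG. Of the genes with a WT rise of 2-fold or more that was not called in KO and a called difference, 218 of 289 held an E-box (75.4%) and 31 held TAATTG. Of the genes that fell 2-fold or more in both genotypes, 101 of 150 held an E-box (67.3%) and 7 held TAATTG. A match is a string of letters and not a known binding site.

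Nlrp5, which encodes the MATER protein of the subcortical maternal complex, stood at -0.07, 0.71 and -0.37 on the P0 KO arrays, against -2.77, -4.43 and -3.67 on the E17.5 KO arrays. The 2 groups did not overlap, and the gene rose by 4.04 ± 0.51 (SE, adjusted p = 9.2e-05) on the log2 scale in KO and by 3.35 in WT. Other genes of the same complex rose as well. Ooep rose by 2.85 ± 0.48 in KO (adjusted p = 0.00063) and by 3.90 in WT, Khdc3 by 3.58 ± 0.55 (adjusted p = 0.00034) and by 5.25. Padi6, which is needed for the cytoplasmic lattices of the egg, rose by 2.58 ± 0.58 in KO and 4.60 in WT. Its difference of -2.02 had a 95% interval from -3.68 to -0.36 and was not called (adjusted p = 0.11). For Khdc3 the difference of -1.67 had an interval from -3.26 to -0.09 and was not called either (adjusted p = 0.16). The intervals of Nlrp5 and Ooep included 0. Tle6, another member of the complex, is already bright before birth and rose by 0.68 ± 0.14 in KO and 1.78 in WT, and here the difference was called (-1.10, adjusted p = 0.0041).

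Nlrp14 showed the largest estimated rise called in KO among genes whose 6 arrays did not overlap. It was well above background on only 1 of the 3 E17.5 KO arrays, so the size of that rise depends on the background. Its levels were -1.67, -0.98 and -0.23 on the P0 KO arrays, against -4.11, -5.78 and -6.44 on the E17.5 KO arrays, a rise of 4.56 ± 0.71 (adjusted p = 0.00038). On the P0 WT arrays it reached 3.65, 3.62 and 3.18, against -2.25, -3.93 and -1.10 on the E17.5 WT arrays. The WT rise of 5.99 and the KO rise differed by -1.43, with a 95% interval from -3.49 to 0.64 that includes 0. E330034G19Rik was not well above background on any E17.5 KO array and was at least 6.4-fold higher at P0 KO. Its other probe rose by 1.59 in KO and 4.89 in WT on the log2 scale, a smaller KO rise than that bound. Oas1d, an oocyte member of the 2'-5' oligoadenylate synthetase family, rose by 3.95 ± 0.77 in KO and 5.04 in WT. Dppa3, the maternal factor also called Stella, rose by 2.06 ± 0.43 in KO and 1.58 in WT.

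The zona pellucida genes, which encode the coat of the egg, rose in KO and stood below the WT level at birth. Zp3, the gene of a sperm-binding coat protein, stood at -2.93, -2.37 and -1.83 on the P0 KO arrays, against -3.69, -4.44 and -3.88 on the E17.5 KO arrays. The groups did not overlap, and the rise was 2.03 ± 0.44 (adjusted p = 0.0032). In WT the gene rose by 5.99, and the difference of -3.96 was called (adjusted p = 0.0022). Zp1 rose by 2.11 ± 0.41 in KO and 5.79 in WT, a called difference of -3.68. However, its P0 KO arrays at -4.38, -4.08 and -3.51 overlapped the E17.5 KO arrays at -6.11, -6.17 and -3.53. Zp1 was well above background on 1 of 3 E17.5 KO arrays and 2 of 3 E17.5 WT arrays. These sizes thus depend on the background. Zp2 was nearer to the wild type, with -0.73, -0.78 and -0.14 on the P0 KO arrays, against -1.80, -3.86 and -4.39 on the E17.5 KO arrays. It rose by 2.84 ± 0.62 in KO and 4.22 in WT, and the difference of -1.39 was not called (adjusted p = 0.30).

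Zar1, a maternal RNA regulator needed at the oocyte-to-embryo transition, showed a called shortfall of -4.25. It stood at -3.50, -3.74 and -3.29 on the P0 KO arrays, against -4.67, -4.93 and -5.31 on the E17.5 KO arrays, and at 1.24, 1.53 and 1.11 on the P0 WT arrays. It rose by 1.56 ± 0.38 in KO (adjusted p = 0.0067) and 5.81 in WT. Npm2, the oocyte nucleoplasmin that shapes chromatin in the egg, rose by 0.84 ± 0.23 in KO (adjusted p = 0.013, and 0.054 at a change of 0.62 without P0 KO 3) and 4.66 in WT. Gdf9, the oocyte growth factor that acts on granulosa cells, rose by 1.40 ± 0.29 in KO and 3.42 in WT. The differences of -3.82 for Npm2 and -2.03 for Gdf9 were called.

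Several other oocyte genes that rose in WT were at or near the background in KO or were not called there. Among the E17.5 and P0 groups, Oosp1, Bmp15, Oog3, Ifi207, Khdc1a, Gtsf1l and Astl met the filter on probes only through P0 WT. Their WT rise and lower KO level can thus come in part from that filter. Oosp1, an oocyte-secreted protein, was not well above background on any of the 6 KO arrays, while the P0 WT arrays stood at -2.15, -2.01 and -2.71, at least 12.6-fold above E17.5 WT. Bmp15, the partner of Gdf9, was likewise not well above background on any KO array. It was so on 3 of 3 P0 WT arrays and on 2 of 3 E17.5 WT arrays. Its difference of -2.78 between the genotypes was not called (adjusted p = 0.056). Oog3 was also not well above background on any KO array and was at least 4.53-fold higher at P0 WT than at E17.5 WT. Ifi207, which belongs to none of the gene lists, was at background on each KO array too and was at least 26.3-fold higher at P0 WT. Ifi207 varied within P0 WT, at -1.71, 0.01 and -1.98. Khdc1a was called in KO (1.89 ± 0.53, adjusted p = 0.014) but was well above background on 1 of the 3 P0 KO arrays and none of the E17.5 KO arrays, and was at least 23.7-fold higher at P0 WT than at E17.5 WT. Gtsf1l, at least 6.49-fold higher at P0 WT, was well above background on none of the P0 KO arrays. Astl, the protease ovastacin of the egg's cortical granules, was not well above background on any P0 KO array, and its change of 1.01 ± 0.64 in KO was not called. Aspg was measured on every array and stood at -3.64, -3.40 and -3.18 on the P0 KO arrays, against -3.53, -3.45 and -3.62 on the E17.5 KO arrays. Its KO change of 0.26 ± 0.22 was not called, its WT rise was 4.12, and the difference of -3.86 was called (adjusted p = 2.3e-05).

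**Figure D2:**
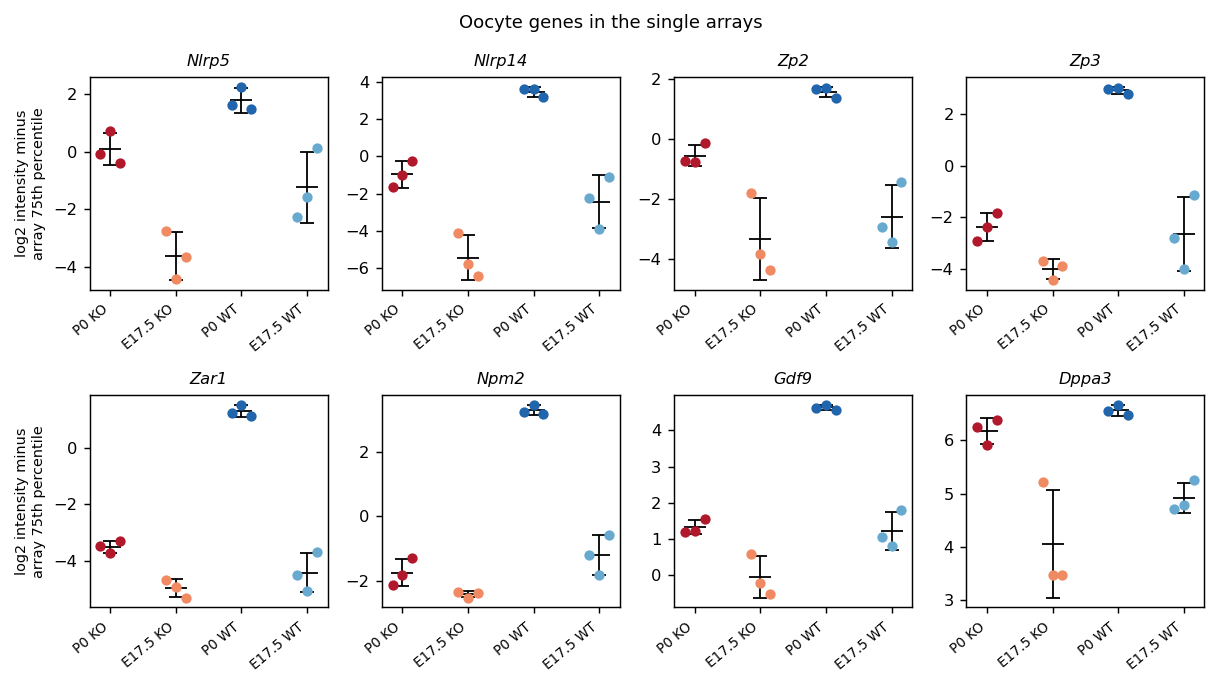
Levels of 8 oocyte genes on each array (log2 intensity minus the 75th percentile of the array), with points for the 3 arrays of P0 KO, E17.5 KO, P0 WT and E17.5 WT and a bar for mean and SD. Nlrp5 at P0 KO, from -0.37 to 0.71, lies below P0 WT, from 1.48 to 2.26, while Zp3, Zar1 and Npm2 at P0 KO lie below 0 and P0 WT above it.

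Of 12 measured transcription factors that govern oocyte genes, 5 rose, none fell and 7 were not called in KO, with a median of 0.86. That is 41.7% called, against 37.2% of all genes. In WT 5 rose, 2 fell and 5 were not called, with a median of 0.56. Sohlh2, a helix-loop-helix factor of early oocytes, rose by 0.88 ± 0.16 in KO and 0.54 in WT. Stat3 rose by 1.28 ± 0.19 in KO and 1.27 in WT. The RNA-binding Y-box protein gene Ybx2 rose by 0.90 ± 0.22 in KO. Nobox had levels of 4.14, 3.59 and 3.98 on the P0 KO arrays, against 3.68, 2.56 and 2.15 on the E17.5 KO arrays, which overlap, and its change of 1.04 ± 0.40 was not called (adjusted p = 0.055). Without E17.5 KO 1 it was 1.62 and was called (adjusted p = 0.0055). Figla (0.36 ± 0.22) and Lhx8 (0.83 ± 0.41) were not called in KO, nor were they in WT. Tbpl2, the TATA-binding protein that replaces TBP in oocytes, was dim at E17.5, at -5.43, -6.62 and -4.68 on the E17.5 KO arrays. It was well above background on 1 of these 3 arrays. It rose by 3.94 in WT and was not called in KO at 1.10 ± 0.41 (adjusted p = 0.053). Its difference of -2.84 was called, and without E17.5 KO 1 or P0 KO 1 the KO change was called, at 1.46 and 1.41. Kit, the receptor that drives oocyte growth, rose by 1.49 ± 0.28 in KO and 1.30 in WT, while Kitl, the gene of its ligand made by pregranulosa cells, fell by 0.79 in KO and by 1.00 in WT.

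Germ cell genes more often rose than fell in KO. Of 35 measured pan-germ cell and piRNA genes, 16 rose, 2 fell and 17 were not called in KO, with a median of 0.37. That is 51.4% called, against 37.2% of all genes. In WT 7 rose, 10 fell and 18 were not called, with a median of -0.07. For 9 of them the KO change was the higher one by the test of the difference, and for none the lower one. Of all genes, 4.28% had a called difference with KO higher and 6.13% with KO lower. Dazl, a germ cell translation regulator, stood at 4.49, 4.31 and 4.27 on the P0 KO arrays, against 3.71, 3.30 and 3.06 on the E17.5 KO arrays, and at 3.61, 3.27 and 3.61 on the P0 WT arrays. It rose by 0.93 ± 0.14 in KO (adjusted p = 0.00026), its change in WT was -0.07, and the difference of 1.00 was called (adjusted p = 0.0061). Tex19.1, which restrains retrotransposons, rose by 0.84 ± 0.16 in KO, and the difference from WT of 1.26 was called. The piRNA factors Gtsf1 (1.52 ± 0.26 in KO, 1.63 in WT), Tdrd1 (1.37 ± 0.30 and 0.84) and Pld6 (0.99 ± 0.15 and 0.81) rose in both genotypes. Dnd1, an RNA-binding protein of germ cells, rose by 1.22 ± 0.16 in KO and 0.70 in WT. Ddx4, the Vasa helicase, changed by 0.38 ± 0.15 in KO and was not called (adjusted p = 0.060), but was called at 0.56 without E17.5 KO 1 and at 0.50 without P0 KO 2. Taf7l, a germ cell TFIID subunit, fell by 1.07 in WT and had 0.49 ± 0.19 in KO, with a called difference of 1.56, and the KO change was called at 0.70 without E17.5 KO 1 and at 0.49 without P0 WT 2 or 3.

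Among pluripotency-related germ cell genes 9 of 22 rose, 1 fell and 12 were not called in KO (45.5% called, against 37.2% of all genes). Lin28a, which blocks let-7 maturation, rose by 2.70 ± 0.51 in KO and 3.25 in WT. Trp63, whose TA form guards the DNA of arrested oocytes, stood at 2.32, 1.97 and 2.53 on the P0 KO arrays, against 1.27, -0.33 and -0.72 on the E17.5 KO arrays. It rose by 2.07 ± 0.40 in KO and 2.10 in WT, with a difference of -0.02. Pou5f1, the gene of OCT4, which returns in growing oocytes, did not follow. It stood at -4.26, -3.45 and -3.29 on the P0 KO arrays, against -3.06, -4.71 and -3.99 on the E17.5 KO arrays, and at -0.02, 0.00 and 0.21 on the P0 WT arrays. Its KO change of 0.47 ± 0.46 was not called (1.24 and called without E17.5 KO 1), its WT rise was 3.43, and the difference of -2.96 was called (adjusted p = 0.011). Tfap2c was not called in KO at -0.53 ± 0.34, rose by 2.51 in WT and had a called difference of -3.04. Without E17.5 KO 1 it fell in KO, by 0.98.

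Fewer meiotic prophase genes fell in KO than in WT. Of 26 measured recombination genes, 5 rose, 9 fell and 12 were not called in KO, with a median of -0.08. That is 53.8% called, against 37.2% of all genes. In WT 4 rose, 12 fell and 10 were not called, with a median of -0.44. The difference was called as higher in KO for 6 and as lower for 1, against 4.28% and 6.13% of all genes. Msh4, whose product stabilises crossover intermediates, stood at -2.27, -2.45 and -2.50 on the P0 KO arrays, against -1.15, -1.35 and -1.28 on the E17.5 KO arrays. The groups did not overlap, and the gene fell by 1.17 in KO (SE 0.09, adjusted p = 3.8e-06) and by 1.47 in WT. Spo11, which makes the meiotic double-strand breaks, fell by 1.16 in KO and by 1.82 in WT. Mei1, also needed for break formation, stood at 1.74, 1.33 and 1.59 on the P0 KO arrays, against 1.86, 1.59 and 1.63 on the E17.5 KO arrays, and at 0.69, 0.42 and 0.73 on the P0 WT arrays. Its KO change of -0.16 ± 0.12 was not called, it fell by 1.30 in WT, and the difference of 1.14 was called (adjusted p = 0.0013). Dmc1, the meiotic strand-exchange protein, fell by 0.69 in KO (adjusted p = 0.023) and by 2.01 in WT, a called difference of 1.32. Its KO call was lost without E17.5 WT 3, E17.5 KO 2, E17.5 KO 3, P0 KO 1 or P0 KO 3, with changes between -0.66 and -0.55.

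Of 24 measured genes of the synaptonemal complex, cohesin and telomere attachment, 6 rose, 5 fell and 13 were not called in KO. That is 45.8% called, against 37.2% of all genes. In WT 2 rose, 14 fell and 8 were not called. A called difference with KO higher was found for 6 and with KO lower for 1, against 4.28% and 6.13% of all genes. Stag3, the meiotic cohesin subunit, stood at 3.11, 3.01 and 3.13 on the P0 KO arrays, against 2.59, 2.08 and 2.19 on the E17.5 KO arrays. It rose by 0.80 ± 0.13 in KO, fell by 0.34 in WT, and the difference of 1.15 was called (adjusted p = 0.0020). Sycp3, a lateral element protein, was not called in either genotype, at -0.12 ± 0.12 in KO and -0.06 in WT. Stra8, the gene that starts meiosis, was not called in KO (0.63 ± 0.45) or in WT (-0.57). It stood at -1.41, -0.35 and -0.24 on the P0 KO arrays, against -2.06, -1.11 and -0.39 on the E17.5 KO arrays, and at -4.28, -3.71 and -3.80 on the P0 WT arrays.

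Some markers of the somatic cells of the ovary changed in KO in the same direction as in WT, and the share of the list called was near that of all genes. Of 36 measured pregranulosa and granulosa genes, 4 rose, 9 fell and 23 were not called in KO, with a median of -0.02, against 9, 12 and 15 with a median of -0.19 in WT. The share called in KO was 36.1%, against 37.2% of all genes. Inhba, the activin subunit gene, stood at -1.23, -1.08 and -1.70 on the P0 KO arrays, against -0.02, 0.22 and 0.01 on the E17.5 KO arrays, and fell by 1.46 in KO (SE 0.16, adjusted p = 4.3e-05) and by 0.96 in WT. Inha, the inhibin alpha subunit, rose by 0.80 ± 0.12 in KO and 1.20 in WT. Bmp2 fell by 1.30 in KO and by 1.74 in WT. Cyp19a1, the aromatase gene, rose by 1.43 ± 0.22 in KO and 1.31 in WT. Foxl2 rose by 0.45 ± 0.12 in KO and 0.37 in WT, and Nr5a2, a nuclear receptor of granulosa cells, by 0.88 ± 0.20 and 1.33. Lgr5, which marks the later pregranulosa lineage near the surface, fell by 0.80 in KO and by 0.97 in WT. Hsd17b1, an estrogen-forming enzyme of granulosa cells, had no such match: its KO change of -0.14 ± 0.25 was not called, it rose by 1.33 in WT, and the difference of -1.47 was called (adjusted p = 0.017).

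Single markers of surface epithelium, stroma, vessels and muscle also changed in KO, with shares called on both sides of the 37.2% of all genes. Of 20 measured surface epithelium genes, 5 rose and 1 fell in KO (30% called). Of 21 stroma and theca precursor genes 5 rose and 3 fell (38.1%), of 17 pericyte and smooth muscle genes 5 rose and 3 fell (47.1%), and of 37 collagen and matrix genes 6 rose and 2 fell (21.6%). Msln, which encodes mesothelin, rose by 1.48 ± 0.25 in KO and 1.11 in WT, and the keratin gene Krt18 by 0.69 ± 0.09 and 0.31. Cyp26b1, the enzyme that breaks down retinoic acid, stood at 0.42, -0.22 and -0.06 on the P0 KO arrays, against -1.36, -1.49 and -1.35 on the E17.5 KO arrays, a rise of 1.50 ± 0.16 in KO (adjusted p = 2.8e-05) and of 1.02 in WT. Of 25 endothelial genes, 5 rose and 7 fell in KO (48%), among them Cldn5, a tight junction gene (1.05 ± 0.13 in KO, 0.73 in WT), and Icam2, an adhesion gene, which fell by 1.04 in KO and by 0.80 in WT. Plvap, of the endothelial diaphragms, fell by 0.99 in KO and by 0.75 in WT. Cnn1, the smooth muscle calponin, rose by 1.65 ± 0.18 in KO and 2.15 in WT, and Dcn, the matrix proteoglycan decorin, by 0.46 ± 0.09 and 0.31. Of 28 macrophage and leukocyte genes, 1 rose and 7 fell in KO (28.6%), including Adgre1, the F4/80 antigen, which fell by 0.81 in KO and by 0.75 in WT, and Cd68, which fell by 0.49 in KO and had -0.03 in WT.

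Glycolysis and hypoxia-response genes more often fell than rose in both genotypes, with similar medians. Of 37 measured, 18 fell, 2 rose and 17 were not called in KO, with a median of -0.41. That is 54.1% called, against 37.2% of all genes. In WT 21 fell, 3 rose and 13 were not called, with a median of -0.46. Hk2, hexokinase 2, stood at 0.37, -0.23 and -0.41 on the P0 KO arrays, against 1.78, 1.80 and 1.40 on the E17.5 KO arrays. It fell by 1.88 in KO (SE 0.27, adjusted p = 0.00022) and by 1.75 in WT, with a difference of -0.13. P4ha2, a collagen prolyl hydroxylase that hypoxia induces, fell by 1.32 in KO and by 1.22 in WT. Ankrd37, a direct target of hypoxia-inducible factor, fell by 1.63 in KO and by 1.16 in WT, Vegfa by 0.95 and by 0.90, Ldha by 0.82 and by 1.07, and Pfkl by 1.10 and by 1.23. Slc2a1, the GLUT1 glucose transporter, fell by 1.57 in KO and by 0.65 in WT. Its difference of -0.91 had an adjusted p of 0.038, which was above 0.05 without E17.5 WT 1, E17.5 WT 3, E17.5 KO 2, E17.5 KO 3, P0 WT 1, P0 WT 2, P0 KO 2 or P0 KO 3.

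Immediate early genes, which respond quickly to signals and to tissue handling, more often rose than fell in KO. In KO 10 of 28 rose, 4 fell and 14 were not called (50% called, against 37.2% of all genes). In WT 8 rose, 5 fell and 15 were not called (6 and 7 called up and down with arrays scaled to their median). Egr1 stood at 2.83, 2.39 and 2.21 on the P0 KO arrays, against 0.70, 1.08 and 0.65 on the E17.5 KO arrays, a rise of 1.60 ± 0.23 in KO and of 1.12 in WT. Fos varied within P0 KO, with 0.54, -0.58 and -3.10, against -3.97, -4.01 and -4.22 on the E17.5 KO arrays. It rose by 2.96 ± 0.81 in KO (adjusted p = 0.012, and 0.051 without E17.5 KO 2) and 2.24 in WT. Atf3 rose by 1.71 ± 0.28 in KO and was not called in WT at 0.57, and the difference of 1.14 was not called (adjusted p = 0.070). Of 28 interferon-response genes, 10 rose and 1 fell in KO (39.3% called, near the 37.2% of all genes), against 9 and 2 in WT. Tap1, the peptide transporter of antigen presentation, rose by 0.81 ± 0.21 in KO.

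Fetal growth genes more often fell than rose in both genotypes. Of 28 measured imprinted and fetal growth genes, 9 fell, 1 rose and 18 were not called in KO, with a median of -0.21, against 20, 1 and 7 with a median of -0.51 in WT. The share called in KO was 35.7%, near the 37.2% of all genes. The difference was called for 2 of the 28, with KO higher, while 10.4% of all genes had a called difference. H19, the growth-limiting imprinted RNA, fell by 0.60 in KO and by 1.03 in WT, Mirg by 0.90 and by 1.14, Nnat by 0.83 and by 0.83, and Grb10, an inhibitor of growth factor receptors, by 0.40 and by 0.37. Cdkn1c, the imprinted cell cycle inhibitor p57, was not called in KO at -0.38 ± 0.14 (adjusted p = 0.053), fell by 1.30 in WT and had a called difference of 0.92. Without E17.5 KO 1 or P0 KO 2 its KO fall was called, at 0.56 and 0.46. Of the other cell cycle inhibitors, Cdkn2b (p15) rose by 1.20 ± 0.12 in KO and 0.87 in WT, and Cdkn1a (p21) fell by 0.99 in KO and by 0.98 in WT.

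More cell division genes fell than rose in KO, and more rose than fell in WT. Of 47 measured, 2 rose, 14 fell and 31 were not called in KO, with a median of -0.28. Thus 34% of the list was called in KO, against 37.2% of all genes. In WT 13 rose, 2 fell and 32 were not called, with a median of 0.16. The difference was called as lower in KO for 12 and as higher for none, against 6.13% and 4.28% of all genes. With arrays scaled to their median it was called as lower for only 3. Under that scaling 8 rose and 3 fell in WT, and the WT median was 0.00. Aurkb, the mitotic kinase of the chromosomal passenger complex, stood at -0.59, -0.68 and -0.86 on the P0 KO arrays, against -0.25, -0.06 and 0.21 on the E17.5 KO arrays. It fell by 0.65 in KO (adjusted p = 0.017, above 0.05 at -0.64 without E17.5 KO 2 and at -0.57 without P0 KO 3), rose by 0.61 in WT, and the difference of -1.25 was called (adjusted p = 0.0093). Tyms, the enzyme of thymidylate synthesis, was not called in KO (-0.21 ± 0.16), rose by 0.87 in WT and had a called difference of -1.08. The replication helicase gene Mcm4 fell by 0.58 in KO, and its change in WT was -0.18. Mki67 fell by 1.12 in KO (adjusted p = 0.017, above 0.05 at -1.11 without E17.5 KO 2 and at -0.99 without P0 KO 3) and was not called in WT. Top2a fell by 0.74 in KO, and its change in WT was 0.01, but another probe of the gene was not called in KO, at -0.31 (adjusted p = 0.32), with a difference of -0.08. Mki67 was highest on E17.5 KO 3, at 4.18, the array with the highest red cell level. The median of the list in KO was -0.22 without that array.

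The ID genes, direct targets of BMP signals, fell in WT and held in KO. Id3 stood at 3.62, 3.51 and 3.45 on the P0 KO arrays, against 3.28, 3.38 and 3.53 on the E17.5 KO arrays, and at 2.85, 2.71 and 2.75 on the P0 WT arrays, against 3.79, 3.79 and 3.63 on the E17.5 WT arrays. Its KO change was 0.13 ± 0.10 and was not called, it fell by 0.97 in WT, and the difference of 1.10 was called (adjusted p = 0.00058). Id1 (-0.03 in KO, -0.92 in WT), Id2 (0.01 and -0.65) and Id4 (-0.10 and -1.23) showed the same, with called differences of 0.89, 0.66 and 1.14. Smad6, an inhibitor of BMP signals and another target, fell by 0.72 in KO and by 1.07 in WT, with no called difference. In the whole list of 46 BMP, activin and TGF-beta genes, 10 rose and 7 fell in KO (37% called, as among all genes), against 10 and 16 in WT. Hey2, a Notch target, was flat in KO at -0.01 ± 0.17, rose by 1.48 in WT and had a called difference of -1.49. Among all 20 measured Notch genes, the difference was called as higher in KO for 4 and as lower for 4. In KO 35% of them were called, against 37.2% of all genes.

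More WNT and hedgehog genes fell than rose in KO. Of 36 WNT genes, 11 fell and 6 rose in KO (47.2% called, against 37.2% of all genes), while 17 fell and 4 rose in WT. Rnf43, a feedback inhibitor, fell by 0.76 in KO and by 0.73 in WT, and Notum, another, by 1.08 and by 1.07. Rspo2, the R-spondin made by oocytes, rose by 1.56 ± 0.24 in KO and 1.86 in WT. Of 12 hedgehog genes, 5 fell and 1 rose in KO (50% called).

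Metabolic and hormone-responsive lists held genes with a called difference, which 10.4% of all genes tested had. Of 28 genes of fasting and fatty acid oxidation, 6 rose and 5 fell in KO (39.3% called, near the 37.2% of all genes). The difference was called as lower in KO for 4 of them and as higher for 1. Of 24 cholesterol synthesis genes, 6 rose, 10 fell and 8 were not called in KO (66.7% called), with a median of -0.16. In WT 13 rose, 2 fell and 9 were not called, with a median of 0.28. For 6 the KO change was the lower one (for 1 with arrays scaled to their median). Fdft1, squalene synthase, was not called in KO (0.22 ± 0.11, but 0.36 and called without E17.5 KO 1), rose by 1.09 in WT and had a called difference of -0.88. Insig1, which holds back sterol synthesis, rose by 1.38 ± 0.22 in KO and 1.22 in WT. Of 23 glucocorticoid-induced genes, 7 rose and 4 fell in KO (47.8% called), against 4 and 7 in WT. A called difference was found for 6 of them, all with KO higher. Tsc22d3, the glucocorticoid-induced leucine zipper, stood at 3.59, 3.48 and 3.79 on the P0 KO arrays, against 3.35, 3.12 and 2.31 on the E17.5 KO arrays. It rose by 0.44 ± 0.11 in KO (adjusted p = 0.0083, and 0.054 without E17.5 KO 2), fell by 0.74 in WT, and the difference of 1.18 was called (adjusted p = 0.00076). Pdk4, a kinase that holds back glucose oxidation, rose by 1.15 ± 0.13 in KO and 0.43 in WT.

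**Figure D3:**
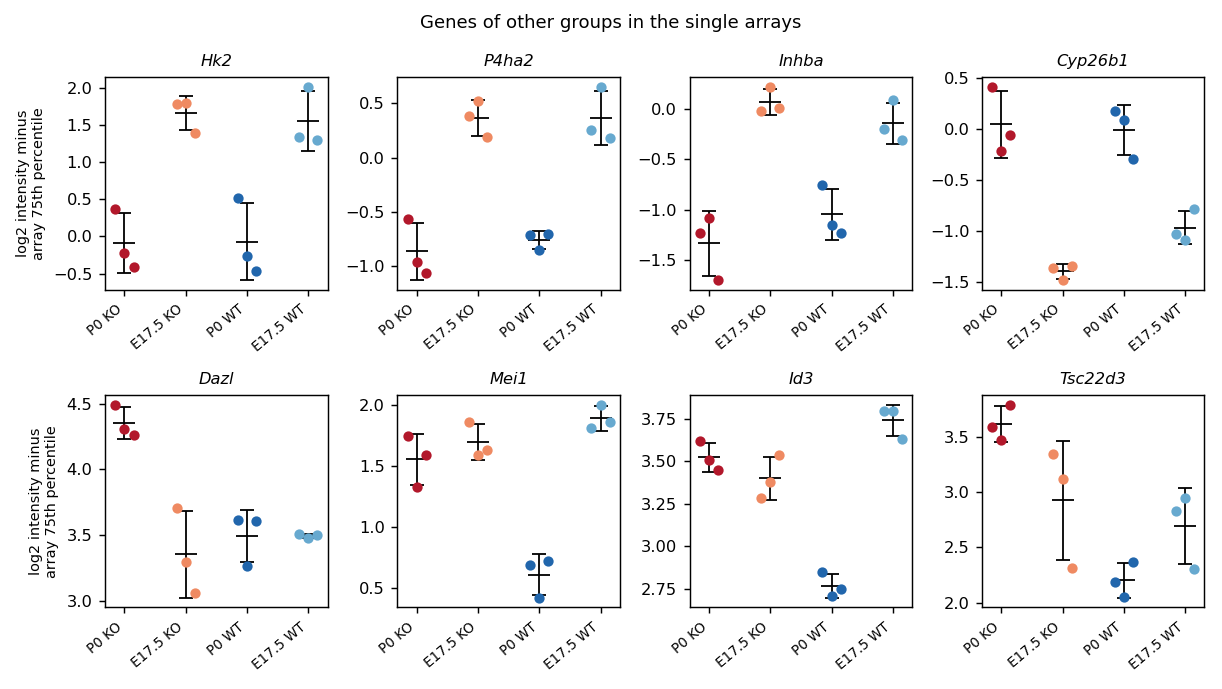
Levels of 8 genes of other groups on each array (log2 intensity minus the 75th percentile of the array), with points for the 3 arrays of P0 KO, E17.5 KO, P0 WT and E17.5 WT and a bar for mean and SD. Hk2, P4ha2, Inhba and Cyp26b1 changed alike in both genotypes, Dazl rose in KO, Mei1 and Id3 fell in WT with KO not called, and Tsc22d3 rose in KO and fell in WT.

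**Figure D4:**
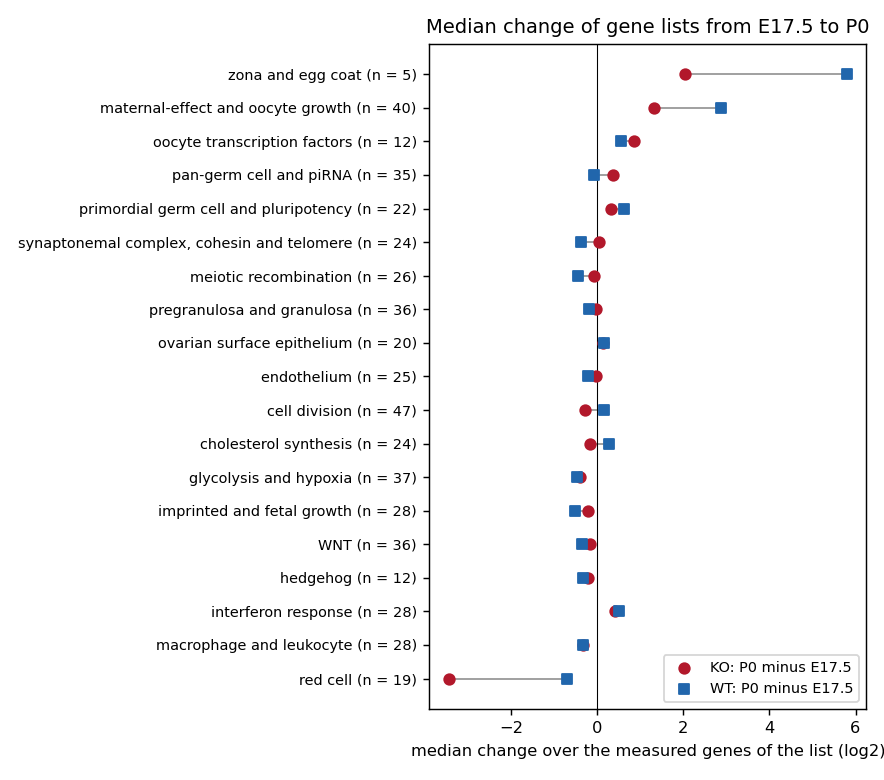
Median change from E17.5 to P0 (log2, horizontal axis) over the measured genes of 19 lists, with red circles for KO and blue squares for WT. The egg coat list has the widest gap, 2.03 in KO and 5.79 in WT, and red cell genes the lowest KO median, -3.43 in KO and -0.69 in WT.

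Red cell genes gave the deepest falls of the knockout. Of 19 measured, 15 fell, none rose and 4 were not called in KO, with a median of -3.43. That is 78.9% called, against 37.2% of all genes. In WT 4 fell, with a median of -0.69, and the difference was called for none. Hemgn, a nuclear protein of red cell precursors, was at -7.46, -5.13 and -7.61 on the P0 KO arrays and not well above background there, against -1.01, 1.09 and 3.33 on the E17.5 KO arrays, at least 94.2-fold lower at P0. Alas2, the first enzyme of heme synthesis in red cells, stood at 0.55, 0.47 and 0.52 on the P0 KO arrays, against 3.28, 3.78 and 4.95 on the E17.5 KO arrays, and fell by 3.38 in KO. On the P0 WT arrays it stood at 0.08, 3.06 and 0.31, against 3.18, 2.58 and 2.08 on the E17.5 WT arrays, so P0 WT 2 lay with the E17.5 arrays. Slc4a1, the band 3 anion exchanger, fell by 5.65 in KO with an SE of 1.52. The globin genes Hba-a1 (fell by 1.81) and Hbb-y (fell by 2.68) fell less. The median fall of the list was 2.94 without E17.5 KO 3 and 4.70 without E17.5 KO 1. Embryonic Hba-x was not well above background on any P0 array of either genotype, and was at least 1.56-fold lower at P0 KO and 1.66-fold lower at P0 WT.

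**Figure D5:**
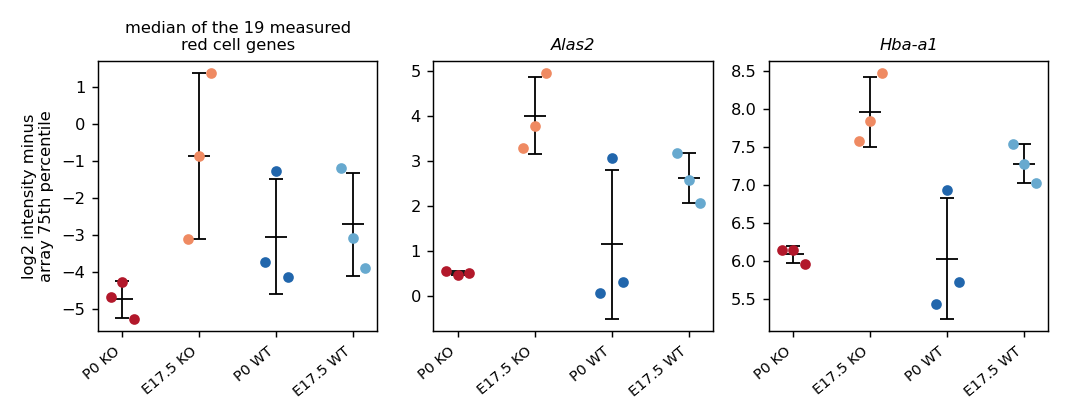
Levels of red cell genes on each array (log2 intensity minus the 75th percentile of the array): the median of the 19 measured genes, Alas2 and Hba-a1, with points for the 3 arrays of P0 KO, E17.5 KO, P0 WT and E17.5 WT and a bar for mean and SD. The P0 KO arrays lie close together and below each E17.5 KO array, while P0 WT 2 lies apart from the other P0 WT arrays.

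Some of the largest other changes of the knockout belong to none of these groups. Gfod1 stood at -0.84, -1.40 and -1.39 on the P0 KO arrays, against -4.65, -5.68 and -4.56 on the E17.5 KO arrays, a rise of 3.89 ± 0.29 (adjusted p = 2.8e-06) in KO and 3.25 in WT. The other Gfod1 probe rose by 1.04 in KO and 0.65 in WT, so the size of the rise rests on 1 of 2 probes that disagree. Dcpp1 rose by 4.18 ± 0.74 in KO and 3.62 in WT, although near-identical Dcpp genes may share its probe. Abca6, a lipid transporter gene, rose by 4.48 ± 0.54 in KO and 2.68 in WT. It was well above background on 1 of 3 E17.5 KO arrays and 2 of 3 E17.5 WT arrays. These sizes thus depend on the background. Gpr174, a receptor known from lymphocytes, was well above background on 3 of 3 P0 KO arrays and on none of the E17.5 KO, P0 WT or E17.5 WT arrays, at least 5.38-fold higher at P0 KO, but the difference between the genotypes was not called (adjusted p = 0.082). Fancf and Pdilt were not well above background at P0 in either genotype, and were at least 1.73-fold and 2.16-fold lower in KO. Ankrd34b held in KO at 0.06 ± 0.28, fell by 2.30 in WT and had a called difference of 2.36.

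Of 40 measured genes of the ELAV family and other mRNA regulators, 14 rose and 6 fell in KO, against 13 and 5 in WT. The list had 50% called in KO, against 37.2% of all genes. Dcp2, the mRNA decapping enzyme, rose by 0.87 ± 0.10 in KO, its change in WT was 0.17, and the difference of 0.70 was called (adjusted p = 0.0077). Cpeb3, a translation regulator, rose by 0.81 ± 0.15 in KO and 1.45 in WT. The brighter of 2 Elavl2 probes (chr4:90918411-90918470 in the coordinates of the array files, build mm9) gave 3.31, 2.94 and 3.24 on the P0 KO arrays, against 2.98, 2.77 and 2.19 on the E17.5 KO arrays, and 4.50, 4.59 and 4.48 on the P0 WT arrays, against 3.58, 3.60 and 3.36 on the E17.5 WT arrays. The KO arrays of the 2 ages overlap, and the rise of 0.36 ± 0.13 (adjusted p = 0.043) was lost under 20 of 28 alternatives. The WT rise was 0.86. The other Elavl2 probe rose by 0.71 ± 0.17 in KO (adjusted p = 0.0051) and 1.36 in WT. Where these probes lie relative to the deleted part was not given, so their signal checks neither genotype label.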

How the data were processed

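Whole ovaries were measured on 18 Agilent 4x44K mouse arrays with 1 colour (Cy3), 3 arrays in each of 6 groups. The files deposited by the authors hold spot intensity from Agilent Feature Extraction (10.7.3.1 in the headers, while the submitters' processing notes name 9.5), of which the processed signal, already background-corrected, was used here. The authors' deposited value table is log2 intensity shifted by a constant for each array, as a comparison with the spot values showed, and it served as an alternative. Probe coordinates are mm9, per the file headers.

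From the 41174 non-control probes, outlier spots were left out (51 to 109 on an array), log2 intensity was centred on the 75th percentile of the array, and probes well above background on the 3 arrays of at least 1 group were kept. The probe with the highest mean stood for its gene, giving 19294 genes. Of 33 named genes with more than 1 probe kept, 7 (Cpeb3, Dcn, Grb10, Kitl, Top2a, Trp63 and Vegfa) were called in KO by the probe used and not by another. Names came from RefSeq (GRCm38.p6) by accession for 28223 probes, and 12951 kept the name in the file. No spot was saturated. A probe not well above background on any array of a group has only a bound there: a fold "at least" sets the bright group's mean against, per array, the higher of the lowest signal among probes well above background and the dim probe's own.

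limma 3.58.1 (R 4.3.3) fitted 6 groups and the scan run to all arrays (11 residual degrees of freedom), with Benjamini-Hochberg adjustment over the genes tested. Contrasts were P0 KO minus E17.5 KO, P0 WT minus E17.5 WT and their difference. The KO and WT contrasts name no group in common but share the run term. Only the E17.5 groups hold arrays of both runs, so the run term rests on the E17.5 arrays of both genotypes. Each fitted change therefore depends in part on E17.5 arrays of the other genotype, and the KO and WT changes are not independent. All scan run values come from 1 run, since the other holds no P0 array. Arrays number only 3 a group, which limits the precision. The comparison, the gene lists and the rule for named genes were chosen with earlier results of these data known. The rule took the 15 largest rises and falls, up to 4 a list by adjusted p, and the 8 largest differences each way. It also took the 8 largest mean changes shared by both genotypes each way, and Elavl2. Other genes named were chosen after their values were seen. Replicates of a group correlated between 0.965 and 0.995, and no pair held identical values.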

Additional observations from a re-analysis of the deposited data

Results flagged for a closer look

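For 38 of the genes named, the KO change from E17.5 to P0 differed from the WT change by limma's test of the difference (adjusted p under 0.05 over 19294 genes). Each value below is the KO change minus the WT change on the log2 scale. Genes of the oocyte with the lower change in KO were Zp1 (-3.68), Zp3 (-3.96), Astl (-4.88), Oosp1 (-5.38), Tle6 (-1.10) and Oog3 (-3.28). To these belong Gdf9 (-2.03), Npm2 (-3.82), Zar1 (-4.25), Aspg (-3.86), Khdc1a (-4.58), Gtsf1l (-4.87), Tbpl2 (-2.84), Pou5f1 (-2.96) and Tfap2c (-3.04). Ifi207 (-4.72), a member of none of the gene lists, and the Notch target Hey2 (-1.49) also had the lower change. Of the 20 measured Notch genes, 4 had a called difference with KO higher and 4 with KO lower. For Oosp1, Oog3, Ifi207, Khdc1a, Gtsf1l and Astl the KO signal was at background on most or all KO arrays. Their values depend on the background and are not sizes of an effect. Among the E17.5 and P0 groups, the same genes met the filter on probes only through P0 WT. Zp1 and Tbpl2 were well above background on 1 of the 3 E17.5 KO arrays, so their values also depend on the background. Somatic, cell division and metabolic genes with the lower change in KO were Hsd17b1 (-1.47), Top2a (-0.75, but -0.08 on its other probe), Aurkb (-1.25), Tyms (-1.08), Slc2a1 (-0.91) and Fdft1 (-0.88).

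Germ cell and meiotic genes with the higher change in KO were Taf7l (1.56), Dazl (1.00), Tex19.1 (1.26), Stag3 (1.15), Dmc1 (1.32) and Mei1 (1.14). Other genes with the higher change in KO were Id1 (0.89), Id2 (0.66), Id3 (1.10), Id4 (1.14), Cdkn1c (0.92), Pdk4 (0.72), Tsc22d3 (1.18), Ankrd34b (2.36) and Dcp2 (0.70). The difference was called in each fit that left out 1 of the 12 arrays of E17.5 and P0 for 35 of the 38 genes, the exceptions being Slc2a1, Top2a and Pdk4. Pdk4 lost its call without P0 WT 2, and Top2a without E17.5 WT 2, E17.5 WT 3, E17.5 KO 2, E17.5 KO 3, P0 WT 1 or P0 WT 2. With arrays of the shared scan run alone it was called for 32 of the 38. The differences were not tested against any explanation.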

How the results depend on the processing

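The 7184 genes called in KO became 3017 (1425 higher, 1592 lower) with the 6 KO arrays alone and 3074 (1740 higher, 1334 lower) with slide as a fixed block, where the KO change rests on P0 KO 3 and E17.5 KO 3, linked through E17.5 WT arrays on their slides. The WT change and the difference could not be estimated with that block, since the P0 WT arrays have a slide of their own. Leaving out 1 array gave 4586 (without E17.5 KO 2) to 7284, with 2298 to 3540 higher and 2288 to 3744 lower. The 1269 calls of 2-fold or more became 423 with normexp and quantile normalization, which compresses low signals, 752 with genes well above background on all 18 arrays, 1944 with slide as a fixed block, and 949 to 1595 with 1 array left out. The 8350 WT calls became 6179 to 8519 with 1 array left out. The 2008 called differences became 1031 without the run term, 1043 with array weights and 1048 to 2024 with 1 array left out. WT changes of 2-fold or more called the same way in KO, 949 in all, became 458 with normexp and quantile normalization, 630 with genes well above background on all 18 arrays, and 696 to 981 with 1 array left out. Other causes of these shifts were not tested.

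No named change reversed its direction past the test. Of 93 named genes called in KO, 61 stayed called under each of the 28 alternatives run for them. Same-numbered KO arrays did not deviate together (correlations of their deviations 0.107, -0.071 and -0.098), so no pairing by replicate number was seen. Differently numbered KO arrays gave -0.290 to 0.239. With 3 arrays a group these values cannot decide whether samples were paired. With a replicate block 6755 genes were called in KO, 1236 of them at 2-fold or more, 7882 in WT and 1794 for the difference. Signal near the background limits folds such as those of Oosp1 and Hemgn to bounds.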
